A study of Homo sapiens with 6 samples.

Results

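SiHa cells are an established line from a human squamous carcinoma of the cervix. Tight junction genes of these cells were compared between 3 libraries from cells given an hsa_circ_0005358 plasmid, named for a circular RNA (circ_0005358 libraries), and 3 libraries from cells given a vector plasmid (vector libraries), all collected 72 h after transfection. PolyA RNA was sequenced, and the study looked for mRNAs downstream of the circular RNA, whose name the labels spell in 3 ways. The circular RNA itself was not analysed here, and nothing in the labels says that libraries of a group came from separate cultures, so the spread between them may be technical. The 9 genes are CLDN1, CLDN4, CLDN7, CLDN12, OCLN, MARVELD2, TJP1, F11R and CGN, out of 35544 loci in the deposited table. They were picked by name with the differences between these groups already known, so their values are given as a description, with no p, and where the fit over all loci called them this is given only as a count.

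Tight junctions seal the space between epithelial cells near their apical edge. Claudins are the membrane proteins that build the sealing strands and set which ions pass. Occludin (OCLN) and tricellulin (MARVELD2) share a MARVEL domain with each other and join the strands, tricellulin mainly where 3 cells meet. The adhesion molecule JAM-A (F11R) lies beside the strands, and the scaffolds ZO-1 (TJP1) and cingulin (CGN) tie the strands to actin and myosin. Epithelial cells that become motile commonly lower claudins and occludin, and the factors of the SNAI and ZEB families are known to repress such genes through E-boxes, short CACCTG sequences, in their promoters.

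Of the 9 genes, 6 had a row of their own, and for CLDN7, CLDN12 and F11R the table held only a row that joins the gene with neighbours. Relative depth, estimated from the smallest steps of the FPKM values, was 71.2% of the deepest in circ_0005358 replicate 2 and between 94.2% and 100% in the other 5. Vector replicate 3 held more loci at low values: its median over all loci was 0.154 FPKM, against 0.0467 to 0.056 FPKM in the other 5 libraries, where FPKM is a fragment count scaled by transcript length and library size. Of 7 epithelial markers, 6 had at least 1 FPKM in some library and KRT5 was at or near 0. The keratin genes KRT7, KRT8, KRT17 and KRT18 were called lower, beside 4.96% of all tested loci called lower. KRT19 and CDKN2A were not called, with ratios of means, circ_0005358 over vector, of 0.849 and 1.12. The sum of the 7 was 630 to 715 FPKM in circ_0005358 libraries and 1265 to 1338 FPKM in vector libraries. KRT17 made the largest part of that difference, with a mean of 205 FPKM with circ_0005358 and 625 FPKM with vector. The leukocyte marker CD68 and the neural marker TUBB3 stood only in joined rows, so they were not counted. The CD68 row had 48.8 to 53.3 FPKM in circ_0005358 libraries and 52.1 to 57.3 FPKM in vector libraries. The TUBB3 row had 11.6 to 14.0 FPKM in circ_0005358 libraries and 12.6 to 13.2 FPKM in vector libraries. Among markers with a row of their own, all 6 endothelial, 5 of 6 fibroblast, 3 of 4 leukocyte and 3 of 4 neural markers stayed under 1 FPKM in every library. The exceptions were LUM, with 1.11 to 1.69 FPKM in circ_0005358 libraries and 6.35 to 9.21 FPKM in vector libraries, CD14, with 1.33 to 16.2 FPKM in circ_0005358 libraries and 10.4 to 13.2 FPKM in vector libraries, and MBP, with 0.338 to 0.434 FPKM in circ_0005358 libraries and 1.05 to 1.30 FPKM in vector libraries. The part of the lower epithelial marker sum in the values below was not tested.

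CLDN1, which encodes a sealing claudin abundant in squamous epithelia, had 10.1, 8.47 and 8.74 FPKM in circ_0005358 libraries, against 121, 117 and 114 FPKM in vector libraries. The groups lay far apart, and each was tight: the mean was 9.10 ± 0.874 FPKM with circ_0005358 and 117 ± 3.31 FPKM with vector (SD, n = 3 each), 12.9-fold lower with circ_0005358. The log2 fold change, taken throughout on log2(FPKM + 1) as circ_0005358 minus vector, was -3.55 (standard error 0.076), the lowest of all 10295 tested loci with a pseudocount of 1. By the plain ratio of means CLDN1, at 0.0775, was not the lowest, since CRTAC1, a secreted cartilage protein gene, stood at 0.0464. CDH1, CDH3 and NPNT, at 0.0694, 0.0721 and 0.0745, also stood below CLDN1. No rank by this ratio was taken over all loci. In a bulk library, fewer cells with a transcript and less of it per cell cannot be told apart. CLDN1 lies at chr3:190305701-190322475 on the minus strand of GRCh38.

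Occludin was low in every library. OCLN had 0.211, 0.0979 and 0.266 FPKM in circ_0005358 libraries, against 0.966, 1.06 and 0.719 FPKM in vector libraries. These groups did not overlap, with a ratio of means of 0.209, but OCLN stayed under the filter for testing, which asks for at least 1 FPKM in at least 3 libraries. The log2 fold change was -0.68, which understates the ratio because a pseudocount of 1 is larger than most of these values. OCLN lies at chr5:69492292-69558104 on the plus strand of GRCh38, and the annotation lists a pseudogene copy, OCLNP1, on the same chromosome, so reads could be split between them.

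MARVELD2, the tricellulin gene, stands 47961 bases before OCLN on chromosome 5 with no other coding gene between them. It had 1.30, 1.90 and 1.75 FPKM in circ_0005358 libraries, against 3.83, 3.64 and 2.72 FPKM in vector libraries. Every circ_0005358 library was below every vector library, and the mean was 1.65 ± 0.315 FPKM with circ_0005358 and 3.39 ± 0.594 FPKM with vector (SD, n = 3 each), a log2 fold change of -0.73 (standard error 0.14). MARVELD2 lies at chr5:69415065-69444330 on the plus strand of GRCh38.

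The scaffolds differed less. TJP1, the ZO-1 gene, had 14.3, 14.7 and 13.1 FPKM in circ_0005358 libraries, against 17.8, 20.7 and 18.5 FPKM in vector libraries. The groups did not overlap, and the ratio of means was 0.738 while the log2 fold change was -0.41 (standard error 0.081). CGN, which encodes cingulin, had 0.491, 0.469 and 0.485 FPKM in circ_0005358 libraries, against 0.524, 0.535 and 0.811 FPKM in vector libraries. It was under the filter, and the highest of its values belongs to vector replicate 3, the library with more loci at low values. TJP1 lies at chr15:29699367-29968865 on the minus strand and CGN at chr1:151510510-151538692 on the plus strand of GRCh38.

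CLDN4 was listed near or at 0 in every library: 0.00681, 0.00567 and 0 FPKM with circ_0005358, and 0, 0.117 and 0 FPKM with vector. No fold is drawn from these values. CLDN4 is a gene with an intron-free form among its annotated coding transcripts, 1 of 2. Among loci whose transcripts all lack introns and that reached 5 FPKM in some library, 83 of 123 (67.5%) were listed at 0 in another library, against 13 of 4575 (0.284%) of loci with an intron. CLDN4 is in neither count, since it did not reach 5 FPKM, and some of its transcripts have an intron. Whether its values of 0 arose as in the intron-free loci was not tested. A listed 0 is not read as absence here.

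The joined rows of CLDN7, CLDN12 and F11R cannot be read as levels of these genes. The CLDN7 row holds 28 transcripts, 8 of them of CLDN7, and also joins the abundant autophagy gene GABARAP and the phosphatase gene CTDNEP1. Another coding locus in the row overlaps CTDNEP1 and CLDN7 but not GABARAP, and how the row came to be joined was not established. The CLDN7 row had 14.6, 16.04 and 12.9 FPKM with circ_0005358 and 12.5, 12.5 and 14.6 FPKM with vector. The CLDN12 row, with 15 of 39 transcripts of CLDN12 and the rest mostly of GTPBP10 and the kinase gene CDK14, had 8.77, 8.20 and 4.36 FPKM with circ_0005358 and 7.60, 7.96 and 7.39 FPKM with vector. Both rows overlapped between groups. The F11R row, with 6 of 16 transcripts of F11R and 7 of TSTD1, had 13.4, 5.25 and 8.93 FPKM with circ_0005358 and 6.30, 7.52 and 7.47 FPKM with vector. Its spread between circ_0005358 libraries, an SD of 4.07 FPKM, was larger than the difference between the group means.

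**Figure D1:**
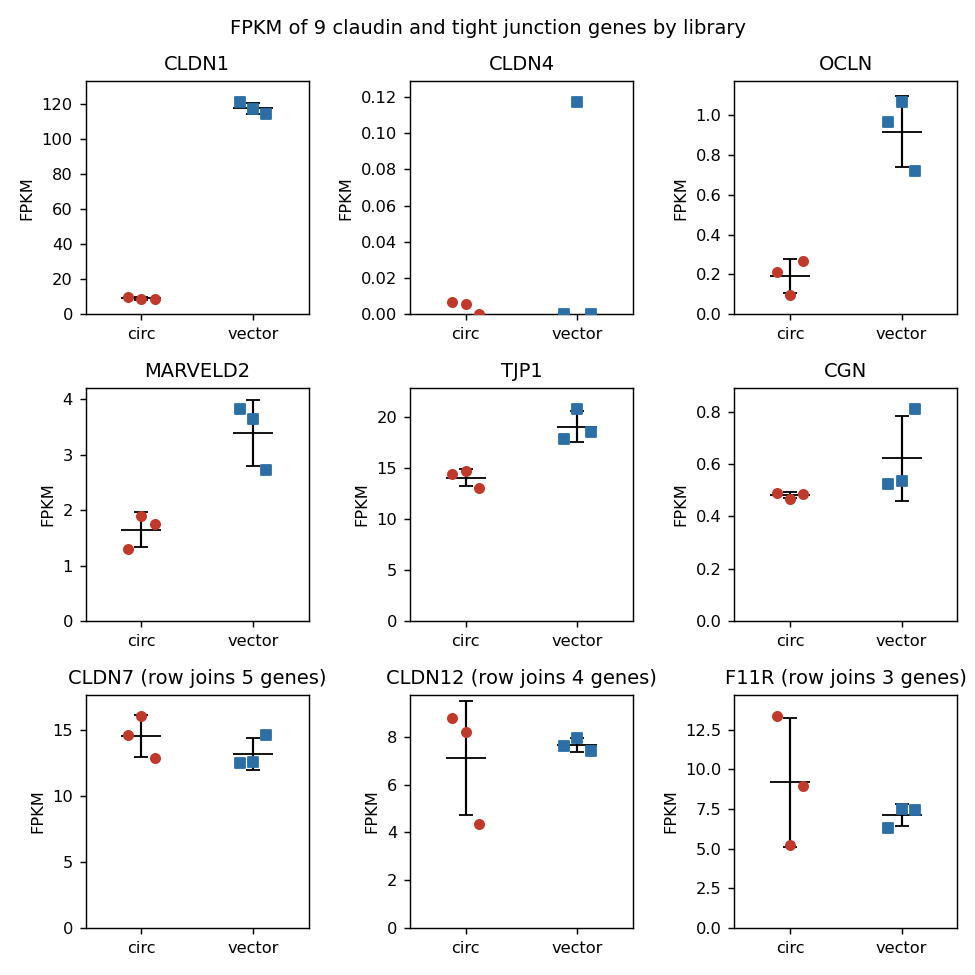
FPKM of the 9 genes in each library, with circ_0005358 libraries (red circles) left of vector libraries (blue squares), and black bars for the mean and SD of 3 libraries (left out where a library is at 0). CLDN1, OCLN, MARVELD2, TJP1 and CGN are lower in all 3 circ_0005358 libraries, while the 3 rows that join several genes overlap between groups.

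In all, 5 of the 6 genes with a row of their own were lower in every circ_0005358 library than in any vector library, set beside 35.8% of tested loci whose groups were apart in either direction. OCLN and CGN, among the 5, were under the filter, and that share leaves out loci under the filter. Of the 9 genes, 6 passed the filter and 3 of these on a row of their own, all 3 of which (CLDN1, MARVELD2 and TJP1) were called lower by limma, where 4.96% of tested loci were called lower and 11.4% called in either direction. Nothing is read from this count, since the genes were picked with this contrast known. The MARVELD2 call was lost without each library in turn except vector replicate 3, with log2 fold changes over the 6 fits of -0.84 to -0.63, and the TJP1 call without any one of the 6 libraries, with log2 fold changes of -0.46 to -0.35.

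FPKM is scaled by length, so levels of different genes can be set side by side. With circ_0005358 the order from high to low was TJP1, CLDN1, MARVELD2, CGN, OCLN and CLDN4, and no neighbours in that order overlapped between their libraries. With vector it was CLDN1, TJP1, MARVELD2, OCLN, CGN and CLDN4, with OCLN and CGN overlapping. CLDN1 was below TJP1 with circ_0005358 and above it with vector, and OCLN and CGN also stood in opposite order.

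CLDN1 made up most of the FPKM listed for claudins with a row of their own, in every library. Of 24 claudin genes looked up, 20 had a row of their own, 3 stood in a joined row and 1 had no row, and 18 of the 20 were under 1 FPKM in every library. The summed level of the 20 was 10.99, 11.8 and 10.3 FPKM in circ_0005358 libraries, against 122, 118 and 118 FPKM in vector libraries. The summed level of the other 19 was 0.896, 3.38 and 1.60 FPKM with circ_0005358 and 1.52, 1.56 and 3.50 FPKM with vector, so the groups overlapped once CLDN1 was taken away. CLDN23, chosen after its values were seen, gave 2.27 FPKM of this in circ_0005358 replicate 2 and was listed at 0 in the other 5 libraries. The share of CLDN1 in the sum was 91.8%, 71.5% and 84.5% in circ_0005358 libraries and 98.8%, 98.7% and 97.03% in vector libraries. Claudins listed at 0 in a library, CLDN23 among them, enter the sum as 0, though a listed 0 is not read as absence here. The sums and shares therefore describe listed values, and they leave out the claudins in joined rows. CLDN16, CLDN9 and CLDN2, chosen after their values were seen, were low but did not overlap between groups. The share of all loci apart at such low values was not taken. The CLDN16 gene lies on the other strand from CLDN1, with 65 bases between the starts of the genes, which run away from each other. CLDN16 had 0.0611, 0.0171 and 0.0497 FPKM with circ_0005358 and 0.319, 0.304 and 0.237 FPKM with vector. CLDN9 had 0.0451, 0.0298 and 0.0435 FPKM with circ_0005358 and 0.291, 0.163 and 0.351 FPKM with vector. CLDN2 had 0.0546, 0.0395 and 0.0575 FPKM with circ_0005358 and 0.0657, 0.0801 and 0.130 FPKM with vector.

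The promoters of the 4 genes with a row of their own that, CLDN4 aside, were lowest relative to vector are shown because their transcripts were lower together and because they differ in E-box content. Each window runs 5′ to 3′ from 250 bases before to 50 bases after a start site (RefSeq, GRCh38.p14), with CACCTG or its reverse complement CAGGTG in capitals.
CLDN1, chr3:190322397-190322696, minus strand: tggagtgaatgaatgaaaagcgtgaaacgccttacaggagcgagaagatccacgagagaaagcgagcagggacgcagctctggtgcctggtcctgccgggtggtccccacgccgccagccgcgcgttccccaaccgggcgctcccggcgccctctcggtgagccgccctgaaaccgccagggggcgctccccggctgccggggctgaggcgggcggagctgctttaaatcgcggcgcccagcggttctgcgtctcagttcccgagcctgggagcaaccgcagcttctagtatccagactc
OCLN, second start site, chr5:69492540-69492839, plus strand: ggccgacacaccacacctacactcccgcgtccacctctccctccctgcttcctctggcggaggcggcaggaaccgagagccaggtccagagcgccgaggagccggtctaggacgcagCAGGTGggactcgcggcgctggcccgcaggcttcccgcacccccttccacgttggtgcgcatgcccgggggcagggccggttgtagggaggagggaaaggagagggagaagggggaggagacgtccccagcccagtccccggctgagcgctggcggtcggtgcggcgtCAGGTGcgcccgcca
MARVELD2, chr5:69414866-69415165, plus strand: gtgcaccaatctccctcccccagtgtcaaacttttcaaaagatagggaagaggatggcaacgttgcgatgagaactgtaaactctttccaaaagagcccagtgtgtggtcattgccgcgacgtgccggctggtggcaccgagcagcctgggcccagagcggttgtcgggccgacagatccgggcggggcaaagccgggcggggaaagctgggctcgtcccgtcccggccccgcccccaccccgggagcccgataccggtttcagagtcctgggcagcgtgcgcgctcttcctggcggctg
TJP1, first start site, chr15:29969000-29969299, minus strand: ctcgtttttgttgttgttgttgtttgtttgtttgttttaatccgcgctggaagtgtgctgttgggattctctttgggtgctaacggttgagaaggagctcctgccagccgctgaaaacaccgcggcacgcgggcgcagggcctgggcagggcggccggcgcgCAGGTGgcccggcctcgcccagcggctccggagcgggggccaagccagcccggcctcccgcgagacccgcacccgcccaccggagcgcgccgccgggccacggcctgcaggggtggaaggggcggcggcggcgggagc

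The table of promoters had 13 windows for 8 of the 9 genes and was searched on both strands for CACCTG. AACNGGTT, a sequence bound by grainyhead-like factors of epithelia, was searched only as written on the strand of the gene. Its reverse complement was not looked for. CACCTG was found in 4 windows of 3 genes, and 20.6% of all 35116 windows of the same length hold it. The OCLN window shown has it at -133 and 36, counted to the first base of the match with the start site as base 1, and the window of the other OCLN start site has it at -33. TJP1 has it at -88 at the first of its 4 start sites, and CLDN7 has 5 matches at 1 of its 2. The CLDN1, MARVELD2, CLDN4, CLDN12 and CGN windows hold no CACCTG. On the strand of the gene, AACNGGTT was found only in CGN, at -27 as AACAGGTT, and in 0.900% of all windows. A match describes letters and not a bound site. CLDN1 has none of these letters within its window, and OCLN has 3 matches over its windows. Whether matches have a part in the differences between groups was not tested.

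**Figure D2:**
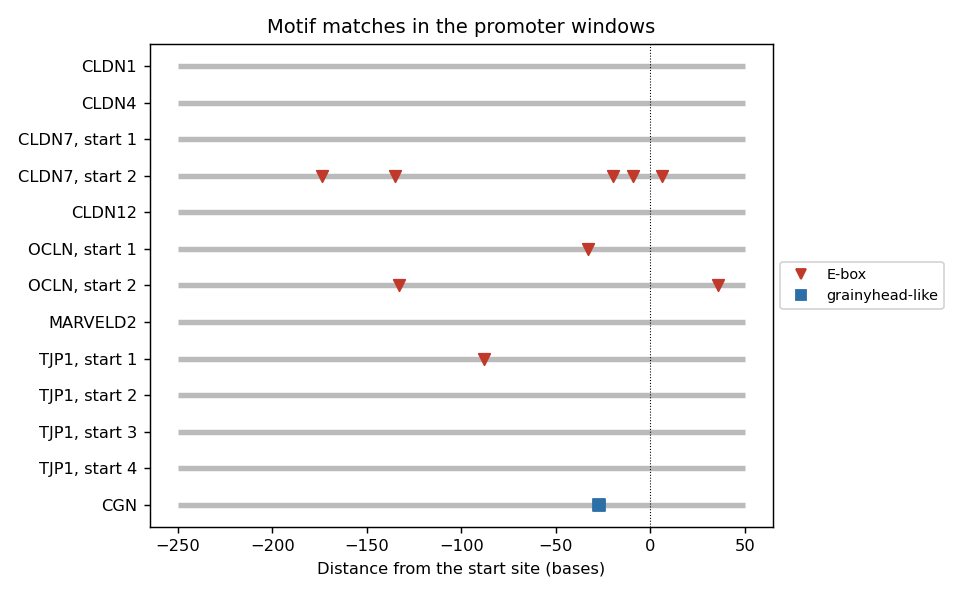
Matches to CACCTG (E-box, red triangles) and AACNGGTT (grainyhead-like, blue square) in 13 promoter windows of 8 genes, placed by distance in bases from the start site (dotted line). CACCTG was searched on both strands and AACNGGTT only on the strand of the gene. OCLN, TJP1 and CLDN7 carry E-box letters, CGN the grainyhead-like letters, and the CLDN1 and MARVELD2 windows neither.

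The rest of the junction was described with a list of 95 genes of the claudin, MARVEL, adhesion, scaffold and regulator classes. Of these, 89 had a row of their own and 47 passed the filter, of which 8 fell and 4 rose (limma, Benjamini-Hochberg adjusted p under 0.05 over all tested loci), while 4.96% of tested loci were called lower and 6.41% higher. Without the 9 genes above, 5 of 44 fell and 4 rose, and the median log2 fold change was -0.05, against 0.02 over all tested loci. With FPKM sums made equal between libraries, 10 fell and 3 rose over the whole list, and 7 fell and 3 rose without the 9 genes, while the calls over all tested loci became 574 lower and 538 higher, against 511 lower and 660 higher as deposited. The split between lower and higher calls therefore depends on the scaling. Leaving out 1 library gave 5 to 8 calls over the whole list in place of 12 (6 without circ_0005358 replicate 1 or 3, 5 without vector replicate 1 and 7 without vector replicate 2), and 4 to 7 in place of 9 without the 9 genes. Among those called, 2 passed the filter only through the group in which they were higher, MYLK among them, so that their calls support nothing. Loci that the deposited table annotates to the bicellular tight junction had 8 of 63 tested loci lower and 3 higher, with a median log2 fold change of -0.07. The 9 genes, picked with this contrast known, were not left out of that count.

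Among other membrane proteins, 2 of 5 tested genes fell and 0 rose, beside 4.96% of all tested loci called lower and 11.4% called in either direction. LSR encodes angulin-1, the receptor that brings tricellulin to the corners where cells meet, and had 4.91, 5.12 and 4.38 FPKM in circ_0005358 libraries, against 15.7, 15.9 and 17.2 FPKM in vector libraries. The groups were far apart, at -1.57 on the log2 scale (standard error 0.074, limma adjusted p = 0.000475), and the call held without each library in turn. Its relatives ILDR1 and ILDR2, chosen after their values were seen, were under 1 FPKM in every library. EPCAM, which binds claudins at the lateral membrane, had 1.04, 1.68 and 1.46 FPKM with circ_0005358 and 2.34, 2.52 and 2.35 FPKM with vector (log2 fold change -0.52, limma adjusted p = 0.0469). This call was lost without each library in turn except circ_0005358 replicate 2 (adjusted p from 0.0564 to 0.146 where lost). The virus receptor gene CXADR, chosen after its values were seen, stood at 7.92, 7.51 and 6.30 FPKM with circ_0005358 and at 2.46, 10.8 and 2.63 FPKM with vector, and was not called.

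Of 18 tested scaffold and polarity genes, 13 were not called, 3 were called lower (TJP1 among them) and 2 higher, beside 4.96% of all tested loci called lower and 6.41% higher. PATJ, a PDZ scaffold of the Crumbs complex that binds ZO-3 and claudins, had 3.51, 3.21 and 3.60 FPKM in circ_0005358 libraries, against 6.60, 6.46 and 6.14 FPKM in vector libraries. Its groups were tight and apart (log2 fold change -0.74, standard error 0.064, limma adjusted p = 0.00256), and its call held without each library in turn. PALS1, the partner of PATJ in that complex, was higher instead, with 7.38, 8.71 and 9.09 FPKM in circ_0005358 libraries, against 5.66, 6.32 and 4.92 FPKM in vector libraries (log2 fold change 0.50, limma adjusted p = 0.0482). The PALS1 call was lost without any one of the 6 libraries (adjusted p from 0.0561 to 0.135). AMOT, the angiomotin gene, had 2.22, 2.34 and 2.37 FPKM with circ_0005358 and 1.11, 1.30 and 1.40 FPKM with vector (log2 fold change 0.55, limma adjusted p = 0.0104). TJP3, the ZO-3 gene, chosen after its values were seen, was not called (log2 fold change 0.35, limma adjusted p = 0.123).

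Of 22 tested regulators, 19 were not called, 2 were higher and 1 lower, and this share of 13.6% called is near the 11.4% over all tested loci. MYLK encodes the myosin light chain kinase that contracts the actin ring under the junction, and had 1.90, 2.38 and 2.32 FPKM in circ_0005358 libraries, against 0.586, 0.615 and 0.687 FPKM in vector libraries (log2 fold change 0.97). These groups did not overlap, but MYLK passed the filter only through the circ_0005358 libraries, so no p is given for it. NEDD4, a ubiquitin ligase gene, had 8.84, 8.45 and 9.17 FPKM with circ_0005358 and 6.04, 6.47 and 6.37 FPKM with vector (log2 fold change 0.43, limma adjusted p = 0.0111), a call lost without vector replicate 1 (adjusted p = 0.051). WNK1, a kinase gene of ion transport, had 23.1, 22.2 and 23.4 FPKM with circ_0005358 and 29.2, 28.8 and 29.2 FPKM with vector (log2 fold change -0.33, limma adjusted p = 0.0123). Without vector replicate 1 the WNK1 adjusted p was 0.0576, and without vector replicate 2 it was 0.055, so the call was lost in both.

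**Figure D3:**
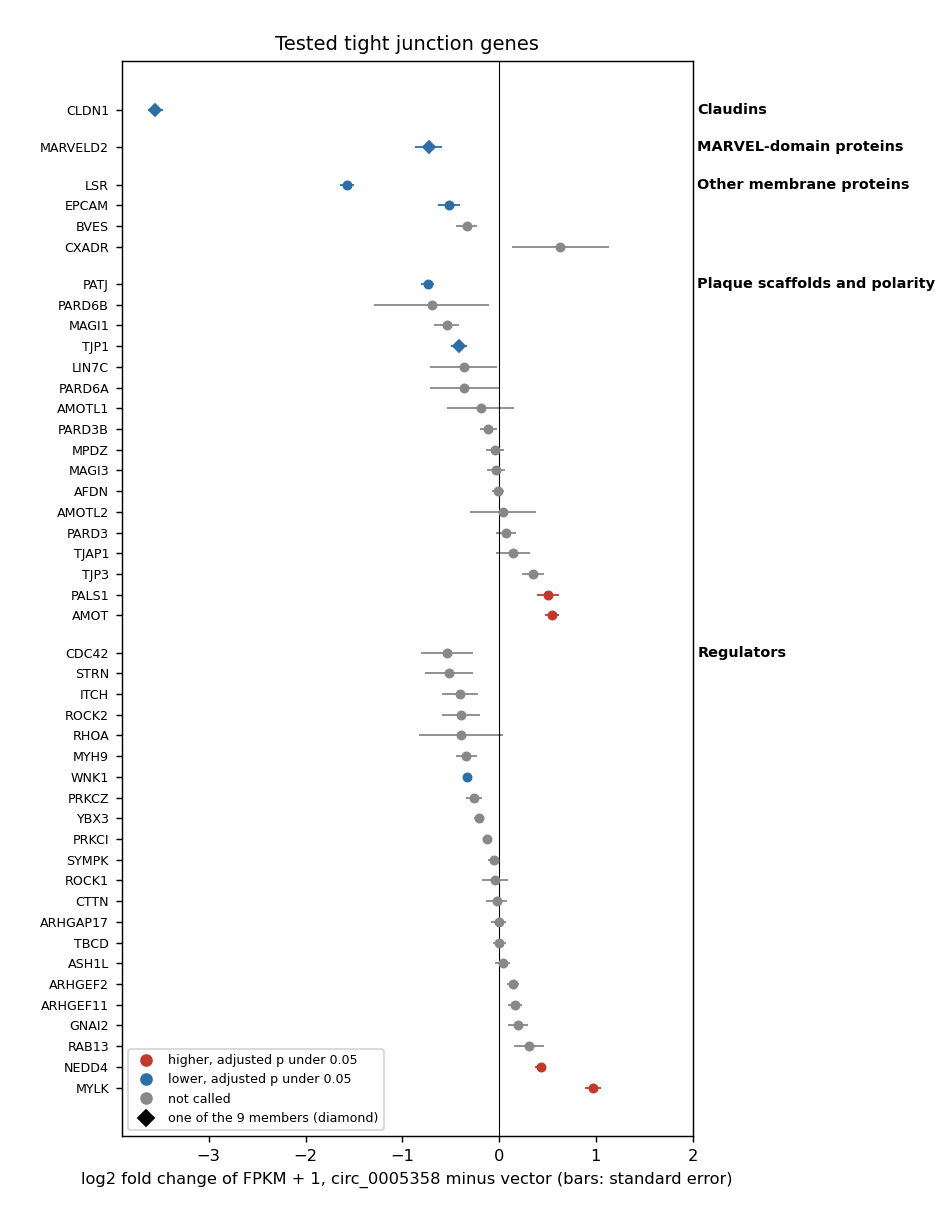
Log2 fold change of FPKM + 1, circ_0005358 minus vector, with its standard error for 45 of the 47 tested junction genes by class, diamonds marking CLDN1, MARVELD2 and TJP1. CLDN1 at -3.55 and LSR at -1.57 lie lowest and MYLK at 0.97 highest, and most scaffolds and regulators lie near 0.

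Factors known to act on claudin and occludin transcription, and the epithelial splicing factors, were looked up as 18 genes, of which 7 were tested on a row of their own, 4 lower and 2 higher, beside 11.4% of all tested loci called in either direction. ESRP1, among the 4, passed the filter only through the vector libraries. SNAI1, a repressor that binds E-boxes, had 10.03, 10.7 and 11.96 FPKM in circ_0005358 libraries, against 6.98, 5.43 and 6.15 FPKM in vector libraries (log2 fold change 0.73, limma adjusted p = 0.0139). ZEB1, another E-box repressor, had 3.14, 3.09 and 3.52 FPKM with circ_0005358 and 2.04, 1.73 and 2.26 FPKM with vector (log2 fold change 0.50, limma adjusted p = 0.0264). ZEB2, the relative of ZEB1, chosen after its values were seen, was under the filter, with 0.668, 0.736 and 0.749 FPKM in circ_0005358 libraries, against 0.292, 0.193 and 0.169 FPKM in vector libraries. SNAI2, the relative of SNAI1, was lower instead, and had 0.492, 1.16 and 1.15 FPKM with circ_0005358 and 3.34, 3.56 and 3.52 FPKM with vector (limma adjusted p = 0.00983). TWIST1, a factor of another family, had 0.619, 1.45 and 1.15 FPKM with circ_0005358 and 2.65, 2.86 and 2.72 FPKM with vector (limma adjusted p = 0.0274). The SNAI1 call was lost without circ_0005358 replicate 3 or vector replicate 3 (adjusted p = 0.0514 and 0.0547), the ZEB1 call without each library but vector replicate 3 (0.0632 to 0.0871) and the TWIST1 call without circ_0005358 replicate 3 or any vector library (0.0799 to 0.0956). ESRP2 and ESRP1, splicing factors of epithelial cells, were at 5.09, 4.15 and 4.25 FPKM and at 0.191, 0.105 and 0.236 FPKM with circ_0005358, against 8.40, 8.08 and 8.27 FPKM and 1.05, 1.38 and 1.22 FPKM with vector (limma adjusted p = 0.00538 for ESRP2, with no p given for ESRP1). GRHL2, a grainyhead-like factor chosen after its values were seen, was under 1 FPKM in every library. GRHL1, ELF3 and KLF4, chosen in the same way and under the filter, had groups apart. Their means were 0.706, 0.0456 and 0.268 FPKM with circ_0005358 and 0.946, 0.467 and 0.865 FPKM with vector. The groups of GRHL2, GRHL3, CDX2, HNF4A, OVOL1 and TP63, chosen likewise and under the filter, overlapped. The share of all loci apart at such low values was not taken.

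**Figure D4:**
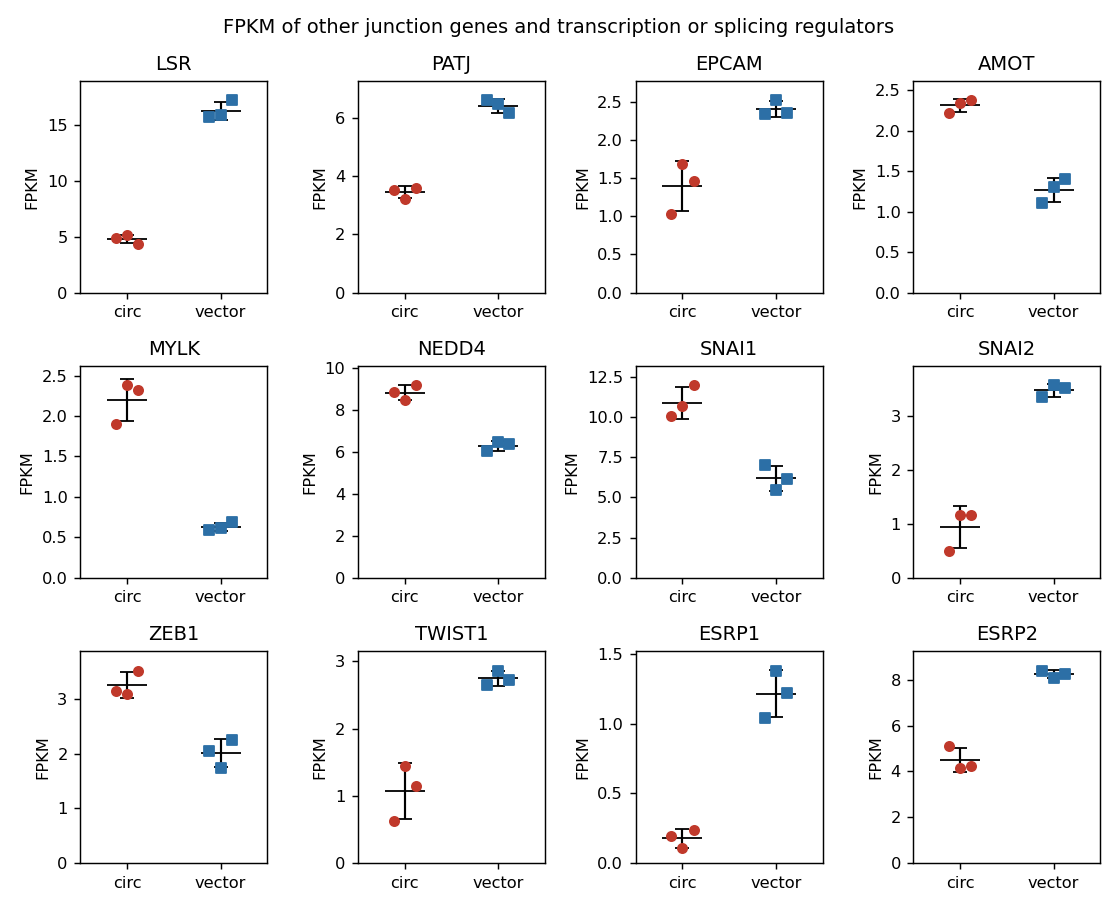
FPKM by library of 12 junction genes and regulators, circ_0005358 (red circles) left of vector (blue squares), black bars giving the mean and SD of 3 libraries. LSR, PATJ, EPCAM, SNAI2, TWIST1, ESRP1 and ESRP2 are lower, and AMOT, MYLK, NEDD4, SNAI1 and ZEB1 higher, in every circ_0005358 library.

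Profiles were compared only with tested loci that had a symbol and a mean of at least 5 FPKM in 1 group. Among these, the loci whose profile over the 6 libraries was most like that of CLDN1 were CRTAC1, NPNT, CDH3, CDH1 and KRT16. Likeness was the root mean square difference of the log2 profiles centred on their means, which ran from 0.180 for CRTAC1 to 0.479 for KRT16, a keratin gene. CRTAC1 had 0.670, 0.853 and 0.701 FPKM with circ_0005358 and 15.5, 15.8 and 16.5 FPKM with vector. Those most like OCLN were EFNB2, which encodes the ligand ephrin-B2, STON2 and ARPC2, a subunit of the actin-branching complex, at 0.0412 to 0.0542. OCLN itself lies under the 5 FPKM limit, so no locus as low as OCLN could be listed. This likeness is on the log2(FPKM + 1) scale, and the ratios of means were unlike, at 0.209 for OCLN against 0.546 for EFNB2, 0.532 for STON2 and 0.615 for ARPC2. EFNB2 had 3.12, 2.96 and 3.19 FPKM with circ_0005358 and 5.90, 6.02 and 5.05 FPKM with vector.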

How the data were processed

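The authors deposited 1 table of FPKM values, and per the submitters' processing notes reads were trimmed with Trimmomatic and aligned with HISAT2 to hg19. The sources used here do not give their versions, nor the program and annotation behind FPKM. Among 35544 loci, 16797 carry identifiers of the kind given to assembled transcripts, and such rows can join neighbouring genes in a row. A row with 1 name, or with 1 protein-coding name in GENCODE 29, was taken as that gene's own, and positions on GRCh38 come from the same annotation. The members were found by splitting the gene names, as their rule states.

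Loci that reached 1 FPKM in 3 or more libraries were tested with limma 3.58.1 in R 4.3.3 on log2(FPKM + 1) by two-sided tests with a trend in the variance, adjusted by Benjamini-Hochberg over all 10295 tested loci at 0.05. FPKM carries no counts, so no counting interval is given. The script was tested on simulated data. The members and lists were chosen with earlier results of these data known. Genes named besides the members and markers are those past the threshold in each list, up to 6 by smallest p, and the loci most like CLDN1 or OCLN; any other is said to be chosen after its values were seen. The alternatives were other pseudocounts, filters, scalings and variance models, leaving out each library, and a replicate block. The values of 2 genes of the junction list are not reported here, though its counts include them.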

Additional observations from a re-analysis of the deposited data

How the results depend on the processing

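The uncalled joined rows of CLDN12 and F11R changed the sign of their log2 fold change with 1 library left out: CLDN12 was at 0.13 without circ_0005358 replicate 3 and F11R at -0.04 without circ_0005358 replicate 1. Of 92 alternative values over the 9 genes, 90 moved by less than the SD between libraries, and the exceptions came with a pseudocount of 0.1, CLDN1 at -3.68 and MARVELD2 at -0.999. Most of the 90 could not have come out otherwise. Filters, the variance model and the block leave a fold change as it is. Leaving out 1 library moves a group mean by less than its SD in any case. The count of 90 is therefore no measure of how stable the values are. The number of called loci, 1171, was 591 with no filter on low values, 259 with a replicate block, 485 to 761 with 1 library left out and 198 without both circ_0005358 replicate 2 and vector replicate 3, a setting chosen after seeing the data. The junction list, with 12 calls, had 7 with no filter, 4 with the block, 5 to 8 with 1 library left out and 4 with both libraries left out. Without the 9 genes it had 9 calls, 3 with the block, 4 to 7 with 1 library left out and 3 with both left out. The cause of the lower counts was not tested, though leaving out libraries leaves fewer residual degrees of freedom, as the block does. With quantile normalization 6 fell and 3 rose among the list without the 9 genes. The calls of LSR and PATJ held under every alternative run for them. The labels do not say what a replicate number shares, and deviations of same-numbered libraries correlated at 0.0481 to 0.0781, although each library correlated best with its own number. The share of CLDN1 in the claudin sum averaged 82.6% with circ_0005358 (78.01% to 88.2% with 1 library left out) and 98.2% with vector (97.9% to 98.7%). At FPKM under 1, as for OCLN, CGN and CLDN4, the files give no counts to set a depth limit.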

Other observations

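Some junction genes differed between libraries of the same group by more than the groups differed. RHOA, the GTPase gene, chosen after its values were seen, had 118, 258 and 123 FPKM in circ_0005358 libraries and 263, 263 and 124 FPKM in vector libraries, so that 3 libraries stood near the lower and 3 near the higher level, in both groups. PARD6B, a polarity gene chosen in the same way, had 6.04, 0.623 and 5.60 FPKM with circ_0005358 and 6.46, 5.85 and 5.27 FPKM with vector, low only in circ_0005358 replicate 2.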
